A study of Mus musculus with 5 samples.

Results

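Transcripts of 6 genes that neutrophils switch on late in their development were followed in sorted mouse haematopoietic stem cells (HSCs): S100a8, S100a9, Ngp, Camp, Ltf and Lcn2. The genes were chosen by name, with earlier results of these data known. All 6 were found among the 11643 gene symbols of the deposited expression table. The RNA came from 2 libraries labelled Tle1/3/4-deficient and 3 control libraries. The cells of every library were bone marrow cells of the C57BL/6 background, sorted as CD150+ CD48- cells of the fraction that lacks lineage antigens and carries c-Kit and Sca-1. In the mice labelled deficient, loxP-flanked copies of the 3 genes Tle1, Tle3 and Tle4 were targeted with Vav-Cre, a recombinase expressed throughout the blood system. TLE proteins are co-repressors that reach DNA through partner factors such as the RUNX and TCF families, and the design asks how their loss alters HSC expression. The names of the control libraries begin with VavC, a tag that the labels do not explain. That tag does not settle if Vav-Cre was present in the controls, and floxed alleles are not mentioned for them. It is also unknown if each replicate was a different animal, and no age is given. The p-values therefore reflect no more than the variation among these 5 libraries, part or all of which may be technical.

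A neutrophil is built in stages, and its granules fill in the order in which their genes are transcribed. Promyelocytes make the primary granule enzymes such as myeloperoxidase, and myelocytes and metamyelocytes then make the secondary granule proteins, a switch that requires the transcription factor C/EBP epsilon. Ngp (neutrophilic granule protein), Camp (cathelicidin, the precursor of an antimicrobial peptide), Ltf (lactoferrin, which binds iron) and Lcn2 (lipocalin-2, which captures bacterial siderophores) belong to that second set. S100a8 and S100a9 encode the subunits of calprotectin, a calcium-binding and metal-sequestering complex that is stored mainly in the cytosol of neutrophils rather than in granules and acts as an alarmin outside the cell. HSCs lie many divisions upstream of these stages, and mature neutrophils carry lineage antigens that the sort was meant to remove.

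Of the promoters of these genes, 4 hold the letters TTGCNNAA on either strand, a form of the site that C/EBP factors recognise. The windows with a match are printed as description, and any bearing of the matches on the levels of the 6 genes was not tested. The sequences are RefSeq promoter windows of build GRCm38.p6, from 250 bases before to 50 bases after the annotated start, written 5′ to 3′ on the strand of the gene, and capitals mark the TTGCNNAA matches. The windows are chr3:90695672-90695971 on the minus strand for S100a9, chr9:110419558-110419857 on the plus strand for Ngp, chr9:111019042-111019341 on the plus strand for Ltf and chr2:32387690-32387989 on the minus strand for Lcn2.
S100a9: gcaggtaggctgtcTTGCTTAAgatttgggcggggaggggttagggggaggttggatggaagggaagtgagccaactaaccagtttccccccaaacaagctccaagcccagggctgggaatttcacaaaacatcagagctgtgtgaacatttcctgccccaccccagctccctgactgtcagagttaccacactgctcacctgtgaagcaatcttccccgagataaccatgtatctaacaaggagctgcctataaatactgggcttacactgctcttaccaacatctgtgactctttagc
Ngp: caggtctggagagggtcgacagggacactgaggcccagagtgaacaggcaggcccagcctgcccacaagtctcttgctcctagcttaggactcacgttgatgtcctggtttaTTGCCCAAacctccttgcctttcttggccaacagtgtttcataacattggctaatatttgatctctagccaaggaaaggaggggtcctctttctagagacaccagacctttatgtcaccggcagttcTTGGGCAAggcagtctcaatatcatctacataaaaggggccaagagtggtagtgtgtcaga
Ltf: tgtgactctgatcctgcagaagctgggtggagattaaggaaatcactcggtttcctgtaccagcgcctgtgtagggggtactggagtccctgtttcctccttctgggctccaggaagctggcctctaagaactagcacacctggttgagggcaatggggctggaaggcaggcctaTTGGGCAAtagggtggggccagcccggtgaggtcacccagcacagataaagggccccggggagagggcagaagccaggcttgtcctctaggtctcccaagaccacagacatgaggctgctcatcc
Lcn2: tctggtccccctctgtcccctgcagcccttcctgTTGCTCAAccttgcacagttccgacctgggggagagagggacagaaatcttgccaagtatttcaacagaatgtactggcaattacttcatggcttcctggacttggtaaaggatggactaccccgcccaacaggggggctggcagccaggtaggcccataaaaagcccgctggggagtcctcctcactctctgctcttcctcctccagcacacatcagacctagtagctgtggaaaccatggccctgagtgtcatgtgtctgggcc

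The window of Ngp held 2 matches, which began 138 and 11 bases before the start. The matches of S100a9, Ltf and Lcn2 began 236, 75 and 216 bases before it. Those of S100a8 and Camp held none. Among all 32851 promoter windows in the table, 10.8% held at least 1 such match, counted over both strands. The other motifs searched gave no common set of the 6. GAGGAA, the core of the site of the myeloid factor PU.1, was in the windows of S100a8, Ltf and Lcn2 and in 28.3% of all windows.

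A form of the RUNX site, TGTGGT, was found in the windows of S100a9 and Ltf, and in 16.8% of all windows. The GATA site was found in the same windows, those of S100a9 and Ltf, searched as the letters AGATAA, which 11.2% of all windows held. TLE proteins also work with the TCF/LEF factors, and a form of their site was in no window of the 6 and in 16.003% of all windows when searched as the letters CTTTGA. All motifs were searched on both strands, and no match overlapped another in these 6 windows. A match is a string of letters and not a measured binding site.

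Expression was given in FPKM (fragment counts scaled to transcript length and to the library total), and values of a group are given in the order of its replicates, 1 and 2 for deficient and 1 to 3 for control. Tle3, a target of the deletion, was higher in the libraries labelled as lacking it, at 32.3 and 31.6 FPKM in the libraries labelled deficient, against 2.48, 4.97 and 5.61 FPKM in the controls. Tle4 was at 0.353 and 0.203 FPKM, against 5.67, 0.0129 and 5.29 FPKM, and Tle1 at 2.84 and 4.37 FPKM, against 1.83, 0.811 and 3.33 FPKM. A gene-level value can include exons outside the floxed part, so it need not show the deletion. The cause of the higher Tle3 level was not tested, and deficient and control are used in the text as label names only. Library sums ran from 599137 to 683822 FPKM, and 656 to 1438 genes per library were listed at 0. None of the 6 genes was listed at 0 in any library.

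Of the 16 HSC markers, all were above 1 FPKM in every library but Fgd5, whose level in replicate 2 of each group was 0.0401 FPKM (deficient-labelled) and 0.184 FPKM (control). The 16 genes summed to 968 and 728 FPKM in the libraries labelled deficient, against 1115 to 1150 FPKM in the controls, with 12 negative and 4 positive log2 fold changes (median -0.68). Kit was at 102.3 and 101.6 FPKM in the libraries labelled deficient, against 165, 185 and 149 FPKM in the controls. Ly6a, which encodes the sorted antigen Sca-1, was at 155 and 14.05 FPKM in the libraries labelled deficient, against 57.8, 96.3 and 199 FPKM in the controls. Deficient-labelled replicate 2, the highest library for all 6 late neutrophil genes, was thus the lowest in Ly6a.

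All 6 transcripts were higher in both deficient-labelled libraries than in any control, and in each case deficient-labelled replicate 2 was the highest library. Their log2 fold changes lay between 4.53 and 5.79, and no gene of the 6 passed the test over all genes. Fold changes are differences of the mean log2(FPKM + 1) between deficient-labelled and control libraries. In bulk RNA a larger number of cells of a type and more RNA per cell cannot be told apart.

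S100a8 was at 7679 and 37600.1 FPKM in the libraries labelled deficient, against 222, 1657 and 1086 FPKM in control replicates 1, 2 and 3. The groups did not overlap, and the lower deficient-labelled library was 4.63 times the highest control. In the libraries labelled deficient S100a8 ranked 2nd and 1st by FPKM among all genes, and in the controls it ranked 410th, 50th and 80th. The log2 fold change was 4.53 (SE 0.94, limma, adjusted p = 0.387).

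S100a9, the partner subunit, was at 1219 and 11347 FPKM in the libraries labelled deficient, against 39.7, 339 and 269 FPKM in control replicates 1, 2 and 3. The lower deficient-labelled library was 3.59 times the highest control, and the libraries labelled deficient differed from each other by a factor of 9.31. The log2 fold change was 4.58 (SE 1.12, limma, adjusted p = 0.433).

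Ngp, which encodes a granule protein of the cystatin and cathelicidin-related fold, was at 848 and 5850.0 FPKM in the libraries labelled deficient, against 4.66, 87.4 and 130 FPKM in the controls. It had the widest gap between the groups, the lower deficient-labelled value being 6.54 times the highest control. Its log2 fold change of 5.79 (SE 1.35, limma, adjusted p = 0.433) ranked 5th from the top of the 10570 genes tested.

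Camp was at 748 and 6283 FPKM in the libraries labelled deficient, against 7.13, 379 and 126 FPKM in control replicates 1, 2 and 3. The groups were closer here, since control replicate 2 reached 379 FPKM and the lower deficient-labelled value was only 1.97 times that. The log2 fold change was 4.89 (SE 1.54, limma, adjusted p = 0.465), with the largest SE of the 6.

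Ltf and Lcn2, the iron-withholding pair, were less abundant. Ltf was at 93.7 and 1039 FPKM in the libraries labelled deficient, against 0.640, 54.8 and 11.5 FPKM in the controls (log2 fold change 4.91, SE 1.49, limma, adjusted p = 0.439). Lcn2 was at 103 and 1226 FPKM in the libraries labelled deficient, against 1.02, 65.1 and 13.4 FPKM in the controls (log2 fold change 4.84, SE 1.49, limma, adjusted p = 0.444). For both genes deficient-labelled replicate 1 stood above control replicate 2 by less than 2-fold, the ratios being 1.71 for Ltf and 1.58 for Lcn2.

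**Figure D1:**
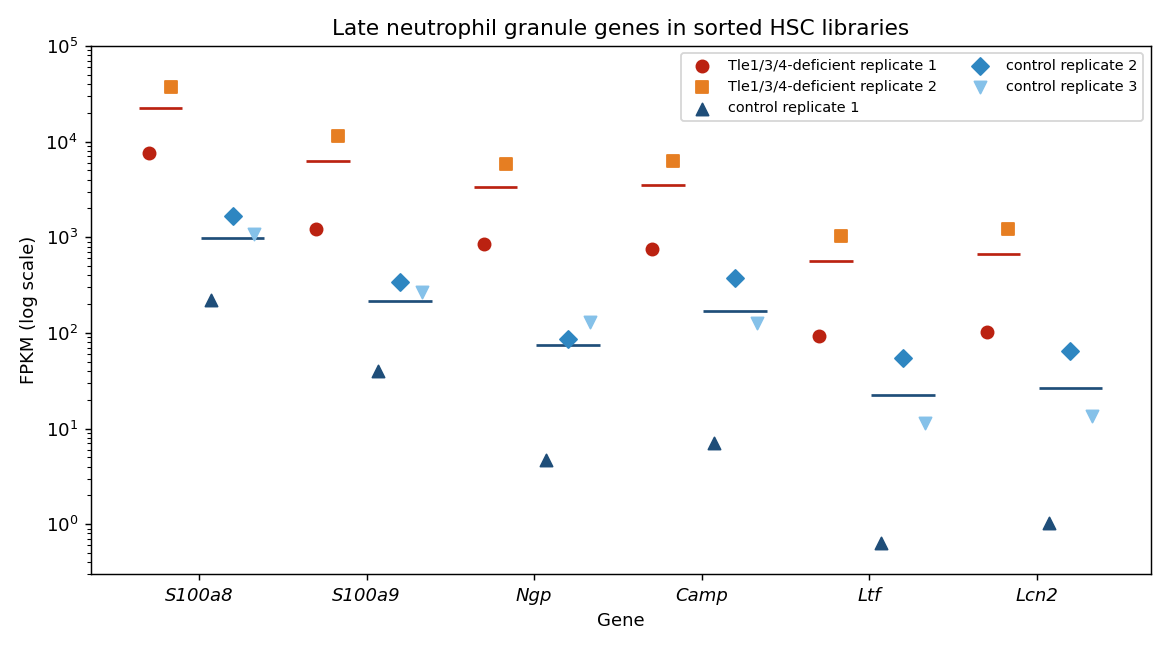
FPKM of the 6 genes in each library, on a log scale, with the 2 deficient-labelled libraries to the left of the 3 controls for each gene; short lines are group means. Deficient-labelled replicate 2 was highest and control replicate 1 lowest for all 6 genes, for example at 37600.1 and 222 FPKM for S100a8.

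None of the 6 genes passed at an adjusted p under 0.05, where 2 of the 10570 genes tested passed, 0.0189% in either direction and 0.00946% upward. At an unadjusted p under 0.05 all 6 were higher, against 3.26% of all genes tested that passed upward and 8.45% that passed in either direction. Non-overlap with both deficient-labelled libraries above every control held for all 6, against 10.2% of all genes tested. The median log2 fold change of the 6 was 4.86, beside -0.10 over all genes tested. By the size of the log2 fold change the 6 ranked between 5th and 20th from the top, and by p-value between 40th and 323rd. The 6 share their libraries and their profile, so their counts are not 6 independent observations.

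The spread within each group was large. On the log2(FPKM + 1) scale the SD of the 6 genes was 1.62 to 2.52 in the libraries labelled deficient (n = 2) and 1.53 to 2.86 in the controls (n = 3). The median SD over all genes tested was 0.47 in the libraries labelled deficient and 0.53 in the controls. Deficient-labelled replicate 2 exceeded replicate 1 by 4.90-fold for S100a8 and by 11.95-fold for Lcn2, with the other 4 genes between. Among the controls the highest library exceeded the lowest by 7.48-fold for S100a8 and 85.6-fold for Ltf.

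The controls fell in nearly the same order for every gene. Control replicate 1 was the lowest for all 6 genes, and control replicate 2 was the highest for 5. The exception was Ngp, at 130 FPKM in control replicate 3 and 87.4 FPKM in control replicate 2. Without control replicate 1 the log2 fold changes were 3.30 to 4.37, and without deficient-labelled replicate 2 they were 2.98 to 4.40. Without deficient-labelled replicate 1 they were 5.67 to 7.18, without control replicate 2 they were 5.11 to 6.36, and without control replicate 3 they were 4.81 to 6.64. All 6 stayed positive without any single library, and none passed (limma, adjusted p = 0.285 to 0.741).

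**Figure D2:**
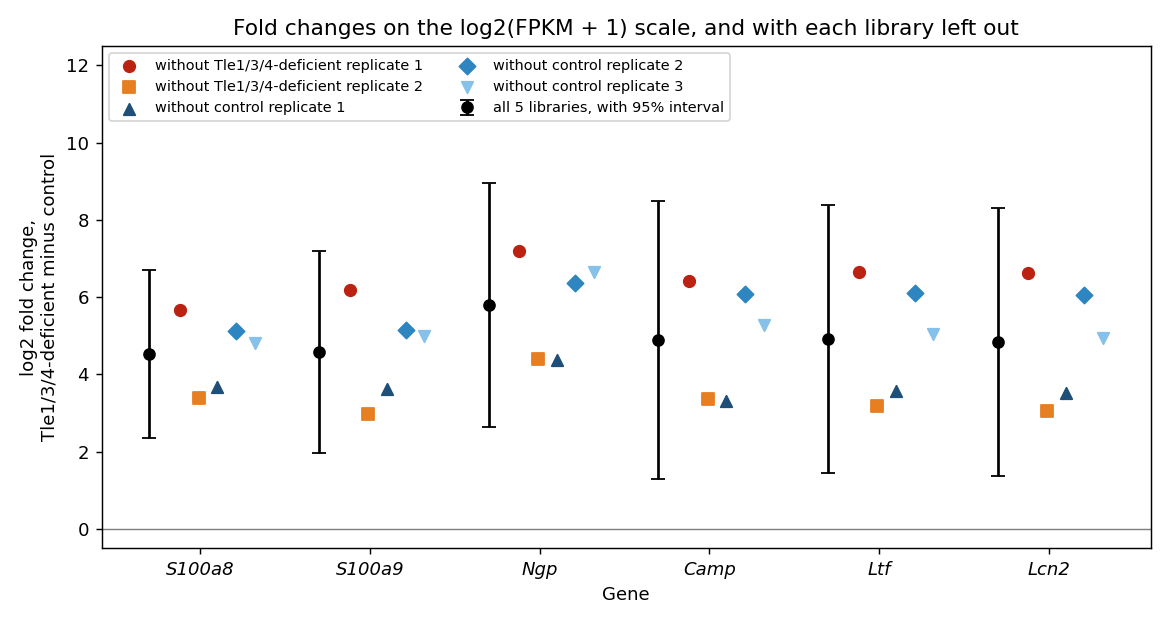
Log2 fold changes (deficient-labelled minus control, log2(FPKM + 1) scale) of the 6 genes with 95% intervals from limma in black, and the same estimates with each library left out in colour. The intervals run from 1.29 to 8.95 at their extremes, and every estimate lies above 0.

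The 6 genes made up 1.56% and 10.6% of the summed FPKM of deficient-labelled replicates 1 and 2, against 0.0445%, 0.402% and 0.252% in control replicates 1, 2 and 3. In deficient-labelled replicate 2 S100a8, S100a9, Camp and Ngp, in that order, took the first 4 places by abundance. S100a8 and S100a9 alone were 83.2% and 77.3% of the 6-gene sum in the libraries labelled deficient, against 95.1%, 77.3% and 82.8% in the controls. FPKM is relative to the library total, so a sum of this size lowers every other gene in that library. When each library was rescaled to the sum of all other genes, the log2 fold changes of the 6 were 4.61 to 5.87.

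Ratios of FPKM between the genes within a library do not depend on library scaling, but the log2 ratios tested had 1 added to each value and so depend on the scale where a gene is low. S100a9 was at 0.159 and 0.302 of the S100a8 level in the libraries labelled deficient, against 0.179, 0.205 and 0.248 in the controls. The controls lay between the libraries labelled deficient, and the mean log2 ratio of FPKM + 1 differed between the groups by 0.057 (exact permutation test, two-sided, p = 1.0). Lcn2 kept close to Ltf, at 1.09 and 1.18 times its level in the libraries labelled deficient, against 1.59, 1.19 and 1.17 in the controls.

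Camp relative to Ngp was less constant. Camp was at 0.883 and 1.07 times the Ngp level in the libraries labelled deficient, against 1.53, 4.34 and 0.975 in the controls, and control replicate 2 stood apart. Ltf was at 0.111 and 0.178 of Ngp in the libraries labelled deficient, against 0.137, 0.627 and 0.0884 in the controls. Lcn2 was at 0.121 and 0.210 of Ngp in the libraries labelled deficient, against 0.218, 0.745 and 0.104 in the controls. The mean log2 ratios of FPKM + 1 to Ngp differed by -0.90 for Camp, -0.88 for Ltf and -0.95 for Lcn2, each within 1 SD of the controls (1.11, 1.37 and 1.39). These differences rested on single libraries, since leaving out control replicate 2 gave -0.28, -0.24 and -0.31 in the same order of genes. Leaving out control replicate 3 gave -1.35, -1.60 and -1.69. Without deficient-labelled replicate 1 those of Ltf and Lcn2 were -0.55 and -0.56. The pseudocount moved them too, to -0.55 for Ltf when 0.1 was added and to -1.51 for Ltf and -1.47 for Lcn2 when 10 was added. None of the 4 ratios tested passed (exact permutation tests, two-sided, Benjamini-Hochberg adjusted p = 0.8 to 1.0). With 10 ways to split the 5 libraries, the smallest p this test can give is 0.2.

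S100a8 and S100a9 are adjacent on chromosome 3, and the other neighbouring genes in the table had log2 fold changes nearer 0 than the 6. Ngp, Camp and Ltf all lie on chromosome 9 but are not adjacent to each other in the RefSeq annotation. Nme6, next to Camp, was at 45.1 and 30.8 FPKM in the libraries labelled deficient, against 36.8, 32.5 and 49.1 FPKM in the controls (log2 fold change -0.059, limma, adjusted p = 0.976). Klhl18, next to Ngp, was at 9.57 and 9.11 FPKM in the libraries labelled deficient, against 3.15, 10.4 and 4.96 FPKM in the controls (log2 fold change 0.66, limma, adjusted p = 0.810). Ccrl2, an atypical chemokine receptor gene next to Ltf, was at 23.7 and 14.2 FPKM in the libraries labelled deficient, against 9.88, 8.34 and 9.25 FPKM in the controls (log2 fold change 0.94, limma, adjusted p = 0.663), so its groups did not overlap either.

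Other genes of late neutrophil development lay on the same side. Of 53 such symbols, listed from general knowledge but with earlier results of these data known, 37 were in the table and tested. Their log2 fold changes were positive for 34 and negative for 3, with a median of 2.63, and none passed over all genes (lowest limma adjusted p = 0.377). In 16 of the 37 both deficient-labelled libraries were above every control, against 10.2% of all genes tested, and in 36 of 37 deficient-labelled replicate 2 was the highest library, against 16.4% of all genes tested. Of the 37, 6 averaged under 1 FPKM in the controls, so they passed the filter through the libraries labelled deficient and had to be higher there. The filter was passed only through deficient-labelled replicate 2 by 3 of the 37, which averaged under 1 FPKM without it and were high in it. Without deficient-labelled replicate 2 the median was 1.04, with 26 positive and 8 negative of 34 tested. Without deficient-labelled replicate 1 it was 4.44.

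Of the 3 most abundant genes on that list, Lyz2, which encodes lysozyme, was at 646 and 2759 FPKM in the libraries labelled deficient, against 431, 409 and 508 FPKM in the controls (log2 fold change 1.58, SE 0.55, limma, adjusted p = 0.505). Retnlg, a resistin-like transcript of mature mouse neutrophils, was at 59.0 and 1462 FPKM in the libraries labelled deficient, against 12.3, 13.7 and 55.8 FPKM in the controls (log2 fold change 3.73, SE 1.25, limma, adjusted p = 0.496). Deficient-labelled replicate 1 thus exceeded control replicate 3 by little. Cd63, a granule membrane tetraspanin that many cell types express, was at 215 and 391 FPKM in the libraries labelled deficient, against 503, 520 and 387 FPKM in the controls (log2 fold change -0.68, SE 0.32, limma, adjusted p = 0.618).

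The list called primary granule genes here covers those genes and other genes of the preceding, promyelocyte stage, Plac8 among them. Its genes varied in how far the libraries labelled deficient stood from each other. Elane, which encodes neutrophil elastase, was at 0.985 and 1293 FPKM in the libraries labelled deficient, against 1.013, 34.95 and 36.2 FPKM in the controls. Prtn3, which encodes proteinase 3, was at 450.0 and 468 FPKM in the libraries labelled deficient, against 280.5, 377 and 411 FPKM in the controls. Plac8 was at 823 and 497 FPKM, against 135, 128 and 234 FPKM in the controls (log2 fold change 1.996, SE 0.36, limma, adjusted p = 0.345). Deficient-labelled replicate 1 therefore held 7679 FPKM of S100a8 with under 1 FPKM of Elane, and replicate 2 held high levels of both. All 13 genes on the list were tested and had positive log2 fold changes, with a median of 1.97, and none passed (lowest limma adjusted p = 0.345). Of the 13, 3 averaged under 1 FPKM in the controls and passed the filter through deficient-labelled replicate 2, where they were high. Without deficient-labelled replicate 2 the median was 0.58, with 6 positive and 4 negative of 10 tested, without replicate 1 it was 4.14, and without control replicate 1 it was 1.07.

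Regulators of granulocyte development were mixed in direction, and none passed. The table held 13, of which 11 were tested, 8 with positive and 3 with negative log2 fold changes, and the median was 0.53. Without deficient-labelled replicate 2 the regulators' median was -0.016, with 5 positive and 6 negative, and without replicate 1 it was 1.46. Spi1, which encodes PU.1, was at 114 and 255 FPKM in the libraries labelled deficient, against 157, 79.6 and 109 FPKM in the controls (log2 fold change 0.62, SE 0.43, limma, adjusted p = 0.719). Stat3 was at 51.7 and 83.3 FPKM, against 39.1, 68.4 and 49.3 FPKM in the controls. Csf2ra, a GM-CSF receptor subunit, was at 14.3 and 82.7 FPKM, against 23.4, 44.2 and 53.2 FPKM in the controls. Cebpe, which encodes C/EBP epsilon, stood apart from these, at 12.9 and 161 FPKM in the libraries labelled deficient, against 0.0634, 2.67 and 4.56 FPKM in the controls (log2 fold change 4.09, SE 1.17, limma, adjusted p = 0.439).

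Genes whose products bind or signal for the encoded proteins were mixed in direction. Such genes numbered 12 in the table, of which 11 were tested, 6 with positive and 5 with negative log2 fold changes (median 0.44, and -0.100 without control replicate 3), and none passed. Their log2 fold changes ran from -2.22 (Ly96) to 4.22 (Fpr2). Both deficient-labelled libraries were above every control for 5 of the 11 and below for 2, against 10.2% and 15.9% of all genes tested. Of the 11, 2 averaged under 1 FPKM in the controls and passed the filter through the libraries labelled deficient. Bsg, which encodes basigin, a receptor for S100A9, was at 266 and 216 FPKM in the libraries labelled deficient, against 338, 317 and 344 FPKM in the controls (log2 fold change -0.47, SE 0.24, limma, adjusted p = 0.640). Myd88, the adaptor below the calprotectin receptor TLR4, was at 66.6 and 99.6 FPKM, against 61.9, 55.3 and 51.8 FPKM in the controls (log2 fold change 0.53, SE 0.31, limma, adjusted p = 0.673). Emb, which encodes embigin, a relative of basigin, was at 17.4 and 41.4 FPKM, against 54.5, 40.9 and 50.4 FPKM in the controls (log2 fold change -0.82, SE 0.44, limma, adjusted p = 0.652).

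The rest of the S100 family was mixed in direction, and none passed. The list of 7 tested held 6 other S100 genes and S100pbp, the gene of a protein named for binding S100P, and 4 had positive and 3 negative log2 fold changes (median 0.028, and -0.14 without control replicate 1). S100a6 was at 219 and 520 FPKM in the libraries labelled deficient, against 104, 79.9 and 105 FPKM in the controls (log2 fold change 1.81, SE 0.39, limma, adjusted p = 0.424). S100a10, the annexin A2 partner, was at 340.0 and 203 FPKM, against 305, 348 and 392 FPKM, and S100a1 was at 213 and 107 FPKM, against 243, 136 and 207 FPKM in the controls. Among iron carriers, lipocalins and cystatins, 3 of the 6 tested were positive and 3 negative (median -0.012, and 0.25 without deficient-labelled replicate 2), and none passed. Cst3, which encodes cystatin C, was at 541 and 468 FPKM in the libraries labelled deficient, against 299, 527 and 457 FPKM in the controls. Cstb, an intracellular cystatin, was at 169 and 93.7 FPKM, against 178, 113 and 186 FPKM in the controls, and the transferrin receptor Tfr2 was at 119 and 86.1 FPKM, against 95.6, 73.3 and 68.3 FPKM in the controls.

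The genes with the profile most like that of the 6 were found by the root mean square difference of centred log2(FPKM + 1) values over the 5 libraries. The nearest was Hp, which encodes haptoglobin, at a difference of 0.46, where the median over all other genes tested was 3.08. The difference counts amplitude as well as shape, so genes that varied little also lie far from the 6. Hp was at 44.4 and 532 FPKM in the libraries labelled deficient, against 0.746, 15.3 and 13.3 FPKM in the controls. It was followed by Wfdc21 (0.58), Ifitm6 (0.63), Lrg1 (0.67), Car1 (0.72), Chil3 (0.72), Mmp8 (0.79), Ccl6 (0.86), Cebpe (0.91) and Clec12a (0.96). Hp, Wfdc21, Ifitm6, Lrg1, Chil3 and Mmp8 were on the list of other late neutrophil genes. Car1, which encodes carbonic anhydrase 1 of red cells, was on the erythroid list, at 14.7 and 299 FPKM in the libraries labelled deficient, against 0.134, 5.68 and 3.68 FPKM in the controls. Among the 6 themselves the difference of each gene from the mean of the other 5 was 0.46 for Ltf, 0.48 for Lcn2, 0.49 for Camp, 0.50 for S100a9, 0.65 for S100a8 and 0.83 for Ngp.

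**Figure D3:**
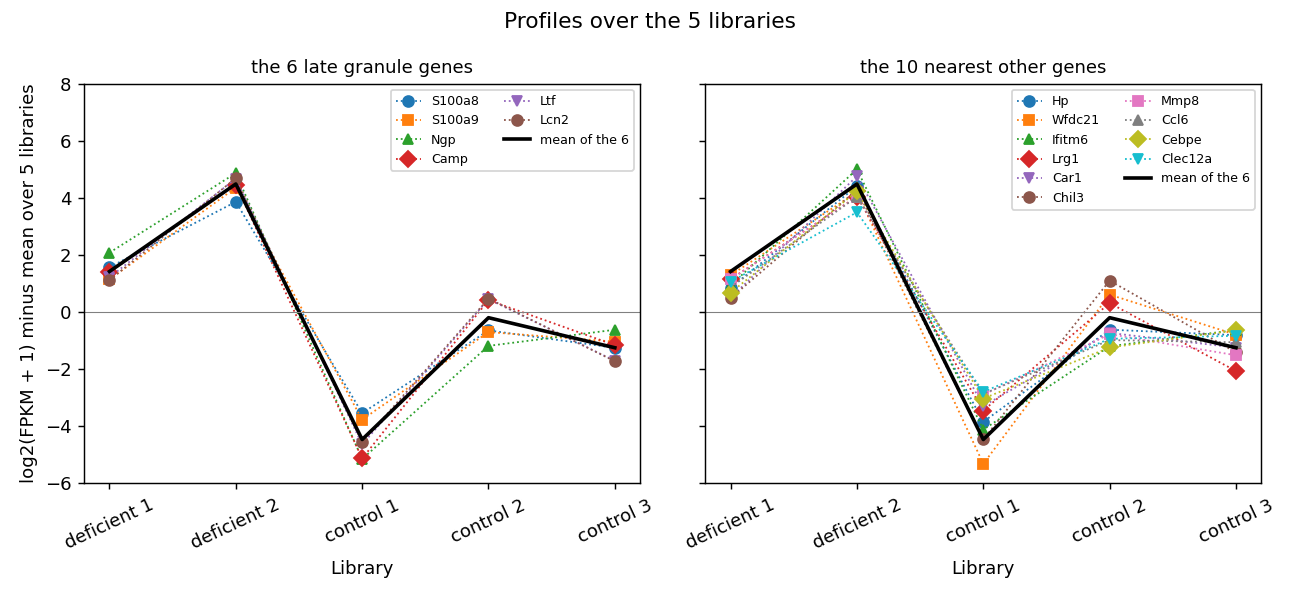
Log2(FPKM + 1) of each gene minus its own mean over the 5 libraries, for the 6 genes on the left and the 10 nearest other genes on the right; the black line is the mean of the 6, and lines only join the values of a gene. The mean of the 6 was 4.49 in deficient-labelled replicate 2 and -4.46 in control replicate 1.

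Markers of several other marrow cell types were also higher in the libraries labelled deficient, and their part in the result was not tested. Of 14 monocyte and macrophage markers in the table, all 14 had positive log2 fold changes, and their summed level was 240 and 1048 FPKM in the libraries labelled deficient, against 44.8 to 145 FPKM in the controls. Of these 14, 6 averaged under 1 FPKM in the controls and passed the filter through the libraries labelled deficient, and without deficient-labelled replicate 2, 10 were tested, 8 positive and 2 negative. The 11 erythroid markers summed to 98.1 and 653 FPKM in the libraries labelled deficient, against 20.8 to 42.8 FPKM in the controls, with 10 positive and a median log2 fold change of 1.97. In deficient-labelled replicate 1, 6 of the 11 were under 1 FPKM, and Epor, the erythropoietin receptor gene, made up 64.0 of the 98.1 FPKM. Without deficient-labelled replicate 2, 7 erythroid markers were tested, 4 positive and 3 negative, and their median was 0.31. The 6 eosinophil, mast cell and basophil markers summed to 708 and 1402 FPKM in the libraries labelled deficient, against 1.46 to 109 FPKM in the controls, with all 6 positive, of which 4 averaged under 1 FPKM in the controls. In the libraries labelled deficient most of this sum was Prg2, an eosinophil granule protein gene, at 663 and 1295 FPKM, against 1.46, 3.89 and 107 FPKM in the controls. The 10 megakaryocyte markers summed to 8326 and 3826 FPKM, against 747 to 1496 FPKM in the controls, a sum that was higher in deficient-labelled replicate 1. Most of it in the libraries labelled deficient was Pf4, at 7503 and 3023 FPKM, against 839, 512 and 255 FPKM in the controls. Each deficient-labelled library was the highest for 4 of the 10 markers. The 3 T and NK cell markers summed to 3.16 and 3.70 FPKM, against 0.0727 to 5.10 FPKM.

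**Figure D4:**
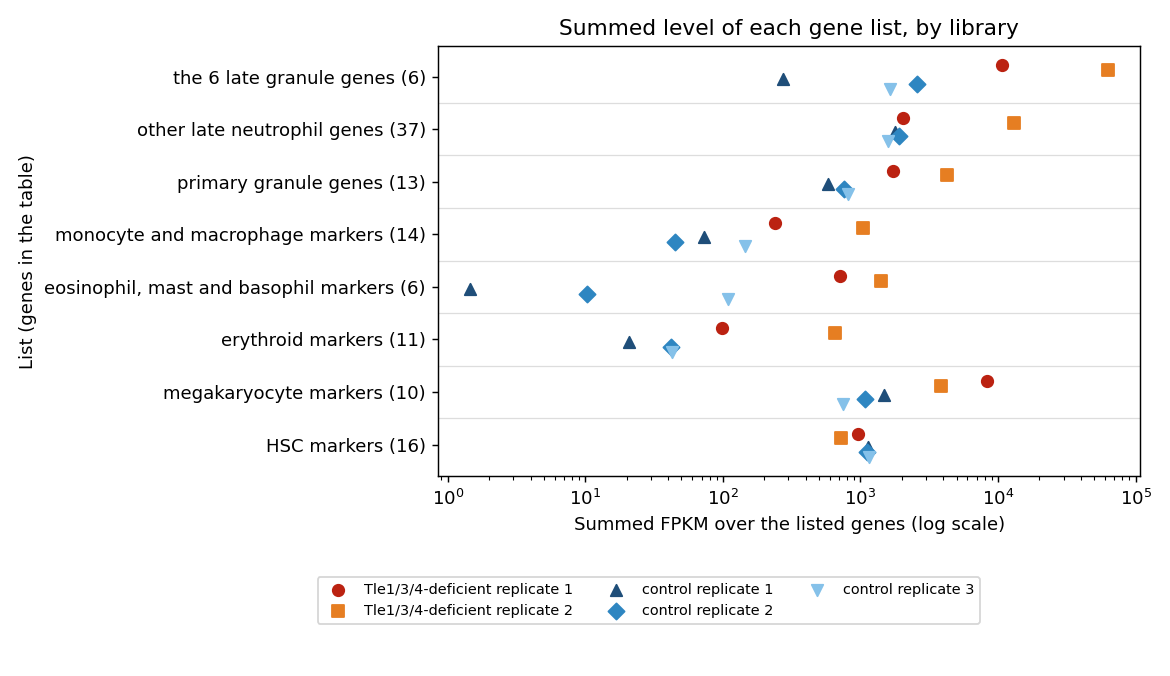
Summed FPKM of the plotted gene lists in each library, on a log scale, with the number of genes in the table in brackets. Deficient-labelled replicate 2 was highest for the 6 genes (63345 FPKM) and for each other plotted list except the megakaryocyte and HSC markers.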

How the data were processed

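RNA-seq of sorted HSCs was deposited as 1 table of FPKM values for 11643 gene symbols in 5 columns, assigned to samples by the names in the sample titles. Per the submitters' processing notes the build was mm9 and the tools were TopHat and edgeR. For the authors' annotation, filters and FPKM tool, nothing is given in the sources used here. The FPKM unit is taken from the name under which the table was deposited.

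The 10570 genes averaging 1 FPKM or more were fitted in limma 3.58.1 (R 4.3.3) after a log2(FPKM + 1) transformation. The model held group alone, variances were moderated by eBayes with a trend, and two-sided p-values were adjusted by Benjamini-Hochberg over all genes, with a threshold of 0.05. Adding 1 makes fold changes too small where values are low, as for Ltf and Lcn2 in control replicate 1. The test was checked on simulated data. Ratios were tested by exact permutation with scipy 1.17.1 under Python 3.11.15. Total reads are unknown. Low values gave an estimated depth relative to control replicate 1 of 1.11 and 1.28 in deficient-labelled replicates 1 and 2 and 1.11 and 1.46 in control replicates 2 and 3, resting on few genes. No counting error can be given.

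The 6 genes and all lists were chosen with earlier results of these data known. Beside the 6, the text names the 3 most abundant genes of each list of neutrophil or related genes, the 10 genes of nearest profile and the Tle genes. Lists of other cell types are given mainly as sums, and 1 marker list is not reported here. Ccrl2, Nme6, Klhl18, Prg2, Epor, Pf4, Fpr2, Ly96, Fgd5, S100pbp, Kit and Ly6a were named after their values were seen. Promoter windows and the order of genes along chromosomes are from RefSeq GRCm38.p6, matched by symbol (6 of 6). Alternatives covered the pseudocount, the filter, scaling, the eBayes settings, the replicate block and each library left out.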

Additional observations from a re-analysis of the deposited data

How the results depend on the processing

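The 6 log2 fold changes stayed positive under all 15 alternatives, at 2.98 to 7.18, and were past the threshold under 1 of them. With the replicate number as a block (limma) they were 4.81 for S100a8 (adjusted p = 0.00612), 4.98 for S100a9 (0.000581), 6.64 for Ngp (8.11e-05), 5.29 for Camp (0.00233), 5.04 for Ltf (0.00279) and 4.95 for Lcn2 (0.00233). That block fit called 22 genes, against 2 without it, and leaves 1 residual degree of freedom. Control replicate 3 has no same-numbered deficient-labelled library, so the block estimates of the 6 genes equal those without that control. Same-numbered libraries had deviations from their group means correlated at 0.035 and 0.0069 across genes. The deviations of the 2 deficient-labelled libraries mirror each other, so these are not separate checks of pairing. For all 6 genes replicate 2 was above replicate 1 in both groups, a difference that the block takes up. The replicate numbers are not known to mark a shared animal or day. The count of genes called was 0 with a pseudocount of 0.1 or no filter, 1 without the eBayes trend, 4 with a pseudocount of 10 or median-of-ratios scaling, 5 with robust eBayes and 0 to 5 without single libraries. The median of the 6 genes was 4.48 to 5.05 across the other settings and 3.27 to 6.52 without single libraries. The difference in the S100a9 to S100a8 ratio, 0.057, had the opposite sign with a pseudocount of 10 (-0.037) and ran from -0.41 to 0.52 without single libraries, being -0.044 without control replicate 1. The median of the other late neutrophil genes ran from 1.04 to 4.44, and that of the primary granule genes from 0.58 to 4.14, without single libraries. Fits without a deficient-labelled library keep 1 library in that group, which is assumed to vary like the controls. The causes were not tested. Rescaling to all other genes and the runs on lists were added after the data were seen.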
